A study of Mus musculus with 6 samples.

Results

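The genes of mouse mitochondrial DNA were read in bulk RNA-seq libraries of primary myoblasts, muscle progenitor cells cultured from the hind limb. They were taken as every row of the count table whose gene name begins with mt-, which gave 37 of 54532 genes: 13 mRNAs, 2 rRNAs and 22 tRNAs. The cells came from mice aged 3 weeks, were grown with 10% FBS and 10 µg/ml FGF at 5% CO2, and were collected after 2 days. There were 3 libraries of WT cells and 3 of cells labelled eIF5A-KO. In the study the KO genotype is Pax7CreERT2/+;eIF5A f/f, induced with tamoxifen. Its WT controls are given as Pax7CreERT2/+ in one place and as Pax7+/+;eIF5A f/f in another, and for these myoblasts only as WT littermates, so it is not known here whether the WT cells carry the Cre allele or the floxed gene. eIF5A is the translation factor that carries hypusine. Cre is driven by Pax7, a satellite cell gene, so deletion is limited to cells that have used that promoter. The cultures were strained through a filter, and no sorting step for them is given in the sources used here. The labels do not say whether the libraries of a group came from separate mice or cultures, so p-values measure only the spread between these samples, which may be technical.

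Mitochondrial DNA is a small circle that encodes the core of the respiratory chain. Complex I takes electrons from NADH, complex III passes them on through cytochrome b, complex IV reduces oxygen and complex V makes ATP, and each of the 4 holds at least 1 protein encoded there. Both strands are transcribed as long precursors. Most tRNAs sit between the mRNAs and rRNAs, and cutting them out frees the transcripts on either side. The enzymes that copy, transcribe, cut and translate this genome are all encoded in the nucleus, and muscle, with its high demand for ATP, is rich in both sets.

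Total counts ran from 16281216 to 17734551 per library. CPM is the count of a gene scaled by its library's total and TMM factor. Eif5a, the targeted gene, had 1600, 985 and 1237 CPM in WT replicates 1 to 3 and 1363, 1457 and 1058 CPM in the libraries labelled eIF5A-KO, with a log2 fold change of 0.02 and an adjusted p of 0.993 in edgeR's quasi-likelihood test with Benjamini-Hochberg adjustment. The groups overlapped, so the transcript level does not tell the labels apart, and directions below are between libraries as labelled. Myoblast markers were present in every library, at a summed 1332, 2365 and 1772 CPM over 10 genes in WT and 1934, 1470 and 1054 CPM in eIF5A-KO. Markers of other cell types were present too: 10 fibroblast genes summed to between 3418 and 4364 CPM, 8 endothelial genes to between 1186 and 3203 CPM, 8 mural cell genes to between 263 and 622 CPM and 10 macrophage genes to between 66.9 and 178 CPM. WT replicate 1 had the lowest endothelial and mural sums of the 6 libraries. Fibroblast sums were highest in eIF5A-KO replicate 2 and WT replicate 1, at 4364 and 4282 CPM, and ran from 3418 to 3774 CPM in the others.

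Genes of myogenic differentiation had the median fold change farthest from 0 of the 7 marker lists. All 10 tested were below 0 in log2 fold change, beside 51.7% of all tested genes, with a median of -1.60. Of these, 6 had an unadjusted p under 0.05 in edgeR, beside 4.02% of all genes that were lower at that p, though none passed the adjusted threshold. Myog, the transcription factor of early differentiation, had 14.4, 76.2 and 32.2 CPM in WT and 8.92, 5.08 and 2.10 CPM in eIF5A-KO. Summed over the 12 listed genes the level was 227, 489 and 276 CPM in WT and 166, 228 and 255 CPM in eIF5A-KO, so the sums overlapped. Of the myoblast genes 8 of 10 were below 0, with a median of -0.45, or -0.72 without WT replicate 1. All 8 endothelial and all 8 mural cell genes were above 0, with medians of 0.45 and 0.44. Without WT replicate 1 these medians were 0.18 and 0.23, and Cdh5, Notch3 and Mcam were below 0. Myh11, a smooth muscle myosin of the mural list, had 10.5, 11.0 and 10.5 CPM in WT and 29.2, 28.3 and 34.2 CPM in eIF5A-KO, and was 1 of the 3 genes called over the whole table (log2 fold change 1.52, adjusted p = 0.0486 in edgeR). No gene at all was called with limma-voom, with DESeq2 size factors or when any single library other than WT replicate 1 was left out. A list of 6 long noncoding RNAs, most of them held in the nucleus, summed to 649, 651 and 647 CPM in WT and 557, 539 and 500 CPM in eIF5A-KO, with 4 of 5 tested genes below 0. The part of the cell make-up in the mitochondrial values was not tested.

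Much of the middle of the mitochondrial map is repeated almost letter for letter in the nuclear genome. Such inserts bear directly on which row a read is counted in, so they are shown before the values. Of the annotated genes, 7 on the minus strand of chromosome 1 lie side by side at chr1:24611535-24616197 (GRCm38) and hold, in map order, the last part of mt-Co1, nearly all of mt-Co2, mt-Atp6, mt-Co3, mt-Nd3 and mt-Nd4l, and the first part of mt-Nd4. All 7 are annotated as unprocessed pseudogenes. The alignments below are read 5′ to 3′ on the transcript, from the GENCODE M21 transcripts of GRCm38, and capitals in the first 4 lines mark the base that differs. Positions count from 1 at the start of the mitochondrial gene.
mt-Co1, positions 1063 to 1122: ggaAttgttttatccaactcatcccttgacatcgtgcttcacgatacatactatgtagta
Gm29216, the same stretch: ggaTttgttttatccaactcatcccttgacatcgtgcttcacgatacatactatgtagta
mt-Nd3, positions 1 to 60: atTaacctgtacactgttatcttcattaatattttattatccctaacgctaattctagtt
Gm28438, the same stretch: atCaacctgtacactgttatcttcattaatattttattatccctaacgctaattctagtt
mt-Co2 and Gm28661, positions 1 to 60: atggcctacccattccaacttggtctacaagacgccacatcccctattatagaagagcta
mt-Atp6 and Gm10925, positions 1 to 60, with the bases that mt-Atp6 shares with the end of mt-Atp8 in capitals: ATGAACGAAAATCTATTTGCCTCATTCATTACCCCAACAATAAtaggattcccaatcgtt
mt-Co3 and Gm28437, positions 1 to 60: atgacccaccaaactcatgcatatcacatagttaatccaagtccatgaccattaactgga
mt-Nd4l and Gm10222, positions 1 to 60: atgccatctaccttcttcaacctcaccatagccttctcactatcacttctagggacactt

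The last 4 stretches are the same in both genes, and each pair shares 1 line. Over the whole alignment, mt-Co2 and Gm28661 were identical across 681 bases, mt-Atp6 and Gm10925 across 678, mt-Co3 and Gm28437 across 783, mt-Nd4l and Gm10222 across 294, and mt-Nd4 and Gm28439 across 876. The single difference in 483 bases between mt-Co1 and Gm29216 is A1066T, and the single difference in 345 bases between mt-Nd3 and Gm28438 is T3C. A read of 100 bases is taken here as a yardstick, since the read length and the rule for reads that fit several places are not given in the sources used here. Of all windows of 100 bases in a gene, the share found unchanged in another annotated gene was 99.5% for mt-Co2 and mt-Atp6, 99.9% for mt-Co3, 98.5% for mt-Nd4l and 97.6% for mt-Nd3. It was 60.8% for mt-Nd4, 30.8% for mt-Co1 and 3.2% for mt-Nd2, and 0 for mt-Nd1, mt-Nd5, mt-Nd6, mt-Cytb, mt-Atp8, mt-Rnr1 and mt-Rnr2. Those comparisons cover annotated transcripts, and the rest of the genome sequence was not searched.

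The rows of the copies carried counts in every library. Gm10925 had 1397, 631 and 605 counts in WT and 618, 1315 and 784 in eIF5A-KO, beside 2042, 367 and 302 and then 462, 695 and 257 counts for mt-Atp6. Its share of the pair's counts ran from 40.6% to 75.3%, so in most libraries more was assigned to the copy than to the mitochondrial gene. Gm28437 held 42.4% to 69.7% of the counts of its pair with mt-Co3, the cytochrome c oxidase subunit III gene. Gm28661 held 22.1% to 48.9% of the pair with mt-Co2, Gm10222 16.0% to 37.1% of the pair with mt-Nd4l and Gm28438 10.8% to 21.0% of the pair with mt-Nd3. For the abundant genes the copies were minor: Gm29216 held at most 0.981% of its pair with mt-Co1 and Gm28439 at most 0.29% of its pair with mt-Nd4. Summed over the 7 copies, counts were 6821, 2341 and 2366 in WT and 2504, 6029 and 2692 in eIF5A-KO, which is 0.481% to 0.983% of the mitochondrial counts. The 2 libraries with the highest mitochondrial counts, WT replicate 1 and eIF5A-KO replicate 2, also had the highest sums for the copies. Whether any of these counts came from nuclear transcripts was not tested.

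**Figure D1:**
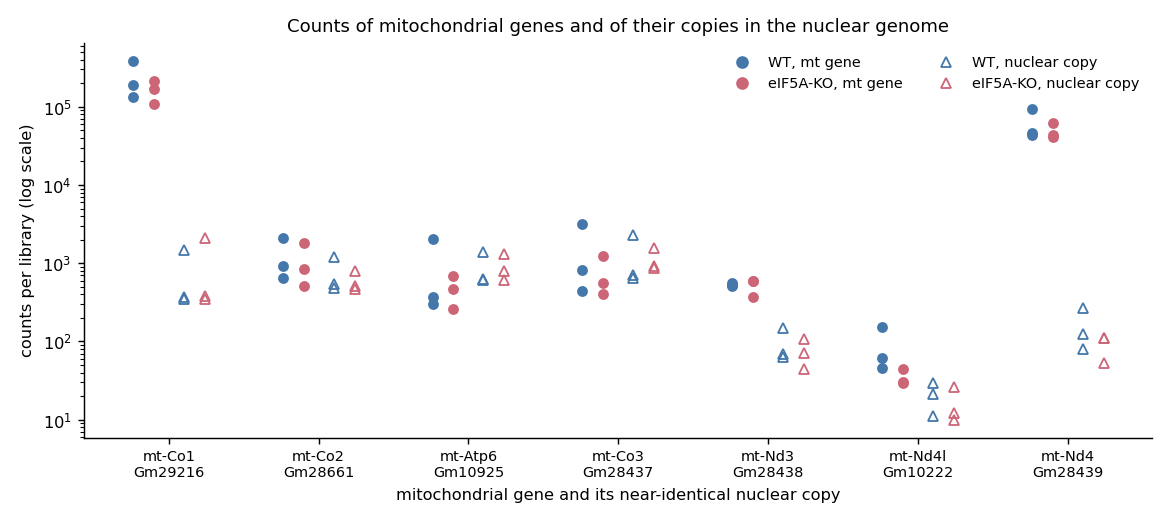
Counts per library (log scale) of 7 mitochondrial genes (filled circles) and of their near-identical nuclear copies (open triangles), with WT in blue and eIF5A-KO in red, in map order. For mt-Atp6 and mt-Co3 the circles and triangles lie in the same range, while mt-Co1 and mt-Nd4 stand far above their copies.

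Other nuclear copies were less similar and were counted rarely. On chromosome 2, Gm13340 matched all 1545 bases of mt-Co1 at 97.61% identity, Gm13341 matched mt-Co2 at 95.91% and Gm13339 matched 510 bases of mt-Nd2 at 96.67%. Their highest counts in any library were 127, 21 and 84. The full-length copy of mt-Cytb, Gm11410, was at 92.91% identity and had no count in any library.

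Levels per length spanned over 3 orders of magnitude among the mRNAs. On the authors' FPKM scale (fragments scaled to transcript length and to library size), means over the 6 libraries were 7708 for mt-Co1, the catalytic subunit of complex IV, 5125 for mt-Nd1 and 5055 for mt-Cytb, the cytochrome b of complex III. mt-Nd2 followed at 2572, mt-Nd4 at 2356, mt-Nd6 at 1134 and mt-Nd5 at 609, all subunits of complex I. The rRNAs of the small and large ribosomal subunits, mt-Rnr1 and mt-Rnr2, had 621 and 529 FPKM. Then came a gap. mt-Co2 was at 99.03 FPKM, mt-Nd3 at 88.6, mt-Co3 at 84.7, mt-Atp6 at 61.3 and mt-Nd4l at 12.1. These 5 are the mRNAs with at least 97% of their windows in a nuclear copy, and the other mRNAs except mt-Atp8 all had 609 FPKM or more. The values of these 5 therefore depend on how such reads were counted, and the part of the copies in their low level was not tested.

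mt-Atp8 stood apart by annotation, at 2.26 FPKM and 4 to 12 counts a library, with no annotated copy. It lies between mt-Co2 and mt-Atp6, and their copies are neighbours on chromosome 1. Gm10925 ends there at base 24614651 and Gm28661 starts at 24614885. Whether the sequence between those copies repeats mt-Atp8 was not searched. mt-Atp8 is the shortest of the mRNA genes, at 204 bases, and its last 43 bases (MT 7927 to 7969) are also the first 43 of mt-Atp6, so that a read over them belongs to both. These are the capitals in the mt-Atp6 line above. mt-Atp8 did not pass the filter on low counts and was not tested. mt-Nd4l and mt-Nd4 overlap likewise, by 7 bases, and mt-Nd5 and mt-Nd6 overlap by 14 bases on opposite strands.

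**Figure D2:**
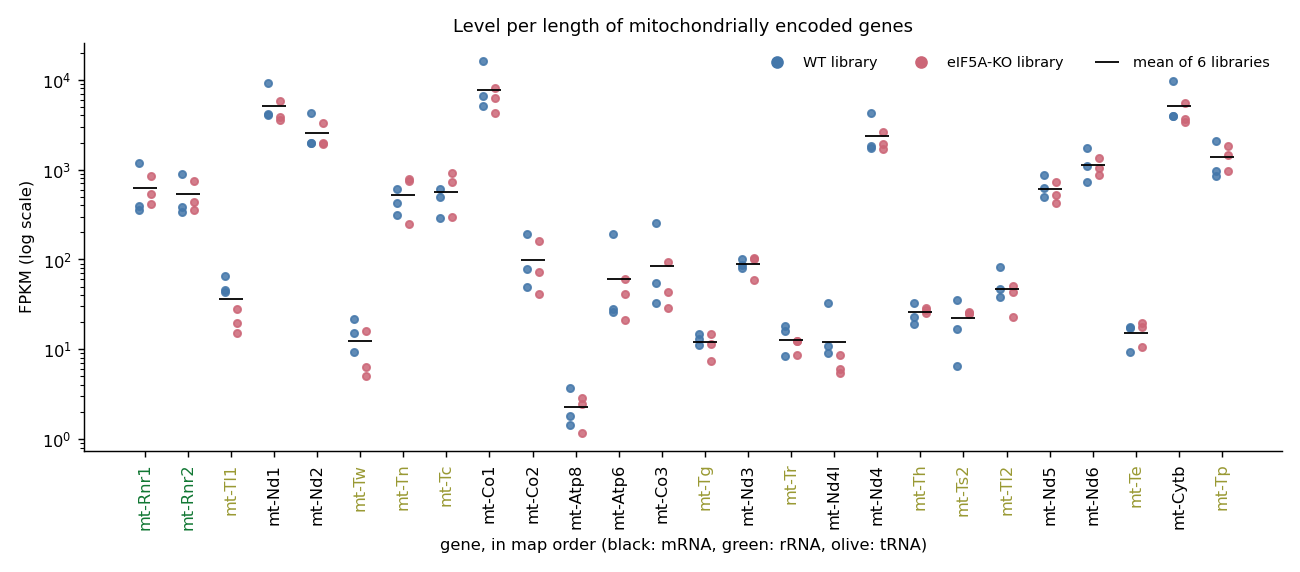
FPKM of the authors (log scale) for the 13 mRNAs, the 2 rRNAs and the 11 tested tRNAs in map order, with 1 point per library (WT in blue, eIF5A-KO in red) and a bar at the mean of the 6. The run from mt-Co2 to mt-Nd4l lies below mt-Co1 on its left and mt-Nd4 on its right, and mt-Atp8 is the lowest, at a mean of 2.26.

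The make-up of the mRNA pool was similar between libraries for the abundant genes. mt-Co1, mt-Cytb and mt-Nd1 together held 77.1%, 75.2% and 72.6% of mitochondrial mRNA counts in WT and 69.1%, 72.5% and 74.9% in eIF5A-KO. mt-Cytb was the steadiest, at 17.9% to 20.0% of the pool, a ratio of 1.12 between the highest and lowest library, and mt-Nd1 ran from 15.3% to 17.8%. mt-Co1 ran from 32.7% to 42.6%. The genes with near-complete nuclear copies varied most. mt-Co2 ranged 4.43-fold in its share, mt-Atp6 3.59-fold, mt-Co3 3.53-fold, mt-Nd3 2.93-fold and mt-Nd4l 2.37-fold.

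Complex I genes made up 37.4%, 40.1% and 44.7% of mitochondrial mRNA counts in WT and 47.0%, 43.4% and 40.8% in eIF5A-KO. The means, 40.7% ± 3.72 and 43.7% ± 3.11 (SD, n = 3 each), differed by less than the spread, and the exact two-sided permutation test gave p = 0.4. Complex IV genes held 39.9% ± 4.18 in WT and 37.4% ± 3.90 in eIF5A-KO (exact permutation p = 0.5, n = 3 each). In both cases the groups overlapped. With 3 libraries against 3 the smallest p this test can give is 0.1, so it could not reach 0.05. It was run on 11 shares and ratios, and the adjusted p over the 11 was at least 0.825.

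The share of all counts that came from mitochondrial DNA was 5.75%, 2.74% and 2.48% in WT replicates 1 to 3. It was 2.11%, 3.50% and 2.53% in the libraries labelled eIF5A-KO. WT replicate 1 stood 1.64 times above the highest other library, and the remaining 5 libraries of both groups were interleaved. The means were 3.66% ± 1.82 and 2.71% ± 0.710 (SD, n = 3 each), and the exact permutation p was 0.6. Without WT replicate 1 the WT mean was 2.61% and the difference turned from -0.944 to 0.102 percentage points. Counting error was small beside this spread: the 95% Wilson interval of a library's share reached at most 0.0112 percentage points to either side, for counting error alone. In bulk RNA, fewer cells rich in mitochondria and less mitochondrial RNA per cell cannot be told apart.

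Nearly all of that share was mRNA, at 5.48%, 2.64% and 2.36% of counts in WT and 1.98%, 3.28% and 2.42% in eIF5A-KO. rRNA counts were 4.41, 3.57 and 4.34 per 100 mRNA counts in WT and 5.96, 5.92 and 4.14 in eIF5A-KO. Thus 2 of 3 libraries labelled eIF5A-KO had more rRNA per mRNA than any WT library, and the third lay between the WT libraries. The means were 4.11 ± 0.463 and 5.34 ± 1.04 (SD, n = 3 each), with an exact permutation p of 0.3. The mt-Rnr2 to mt-Rnr1 ratio was 1.26, 1.58 and 1.63 in WT and 1.37, 1.46 and 1.43 in eIF5A-KO (exact permutation p = 0.5). The RNA was total RNA, and whether rRNA was removed or polyadenylated RNA was selected is not given in the sources used here.

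**Figure D3:**
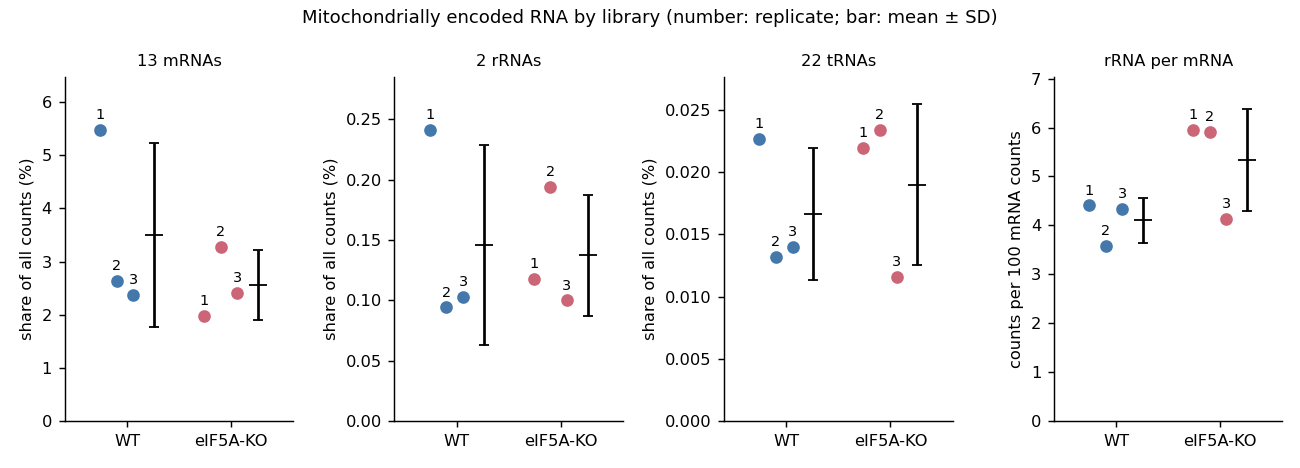
Share of all counts (%) of the 13 mRNAs, the 2 rRNAs and the 22 tRNAs, and rRNA counts per 100 mRNA counts, by library (points, numbered by replicate; WT in blue, eIF5A-KO in red) with the mean ± SD of each group (n = 3). WT replicate 1 is highest for mRNA and rRNA, and the groups overlap in every panel.

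The comparison of the groups gene by gene asked whether mitochondrial transcripts differed between libraries labelled eIF5A-KO and WT. Of the 37 genes, 25 passed the filter: 12 mRNAs, both rRNAs and 11 tRNAs. In edgeR's quasi-likelihood test none of the 25 passed an adjusted p of 0.05, with adjusted p between 0.398 and 0.990, beside 3 of all 14679 tested genes (0.0204%). DESeq2 and limma-voom called none of them either. At an unadjusted p under 0.05 there were 2, mt-Tl1 and mt-Nd4l, both lower in eIF5A-KO. Over all tested genes 4.02% were lower and 2.74% higher at that threshold. The same 2 were the tested members whose groups did not overlap, against 6.83% of all genes that were lower without overlap and 5.68% that were higher. A count of 2 in 25 is near those background shares.

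All 12 tested mRNAs had a log2 fold change below 0, with a median of -0.37 and a range of -1.37 to -0.03. Over the 25 genes 19 were below 0, beside 51.7% of all tested genes, and the median was -0.24 against -0.01 for all genes. The genes are cut from shared precursors and were read in the same 6 libraries, so they are not independent. This pattern rested on WT replicate 1, where 11 of the 12 mRNAs and both rRNAs were at their highest. Without it the median of the 25 was 0.11, with 9 below 0, and only 2 of the 12 mRNAs were below 0. Once fold changes had been corrected for transcript length and GC share the median of the 25 was 0.11 as well, but 8 of the 12 mRNAs stayed below 0, with a median of -0.10. In WT replicate 1 the tested mRNAs stood at 1.19 to 6.78 times the median of the other 5 libraries.

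**Figure D4:**
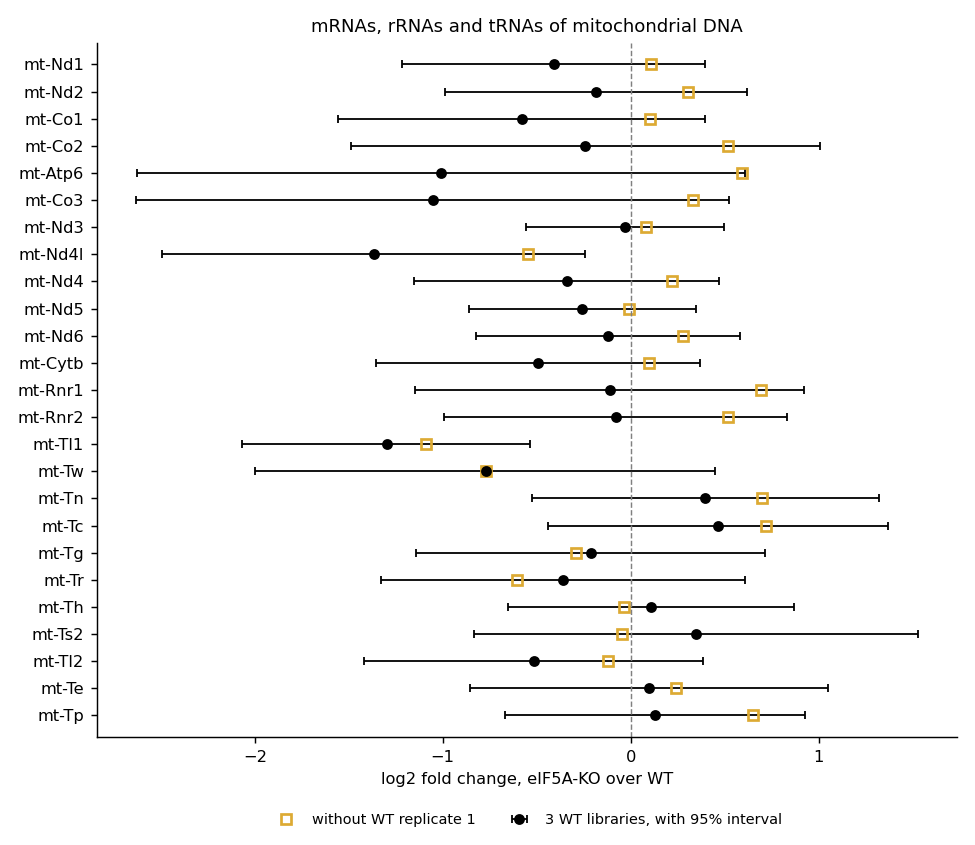
Log2 fold change, eIF5A-KO over WT, of the 25 tested genes with its 95% interval (black), and the same without WT replicate 1 (open squares), grouped as mRNAs, rRNAs and tRNAs. All 12 mRNAs lie below 0 with all libraries, and 10 of them lie above 0 without WT replicate 1, while mt-Nd4l, mt-Nd5 and the tRNAs mt-Tl1, mt-Tw, mt-Tr, mt-Tg and mt-Tl2 stay below.

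Among the complex I subunits, mt-Nd1 had 9015, 3885 and 4029 CPM in WT and 3437, 5581 and 3730 CPM in eIF5A-KO. mt-Nd2 had 4495, 2047 and 2050 CPM in WT and 2075, 3475 and 2008 CPM in eIF5A-KO. mt-Nd4 had 5983, 2442 and 2553 CPM in WT and 2662, 3656 and 2355 CPM in eIF5A-KO. In all 3 genes WT replicate 1 was highest and eIF5A-KO replicate 2 came next, with the other 4 libraries close together. Their log2 fold changes were -0.41, -0.19 and -0.34, and 0.11, 0.31 and 0.22 without WT replicate 1.

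mt-Nd5, the longest mRNA gene at 1824 bases, had 1591, 1144 and 920 CPM in WT and 785, 1316 and 957 CPM in eIF5A-KO, a log2 fold change of -0.26, and of -0.0093 without WT replicate 1. mt-Nd6, the mRNA encoded on the minus strand, had 912, 377 and 565 CPM in WT and 548, 702 and 456 CPM in eIF5A-KO, a log2 fold change of -0.12 with a 95% interval from -0.82 to 0.58. mt-Nd3 had 35.9, 28.1 and 30.2 CPM in WT and 36.2, 35.2 and 20.8 CPM in eIF5A-KO, the smallest difference of the mRNAs at -0.03. mt-Nd3 and mt-Nd5 were thus closer between WT replicate 1 and the other WT libraries than mt-Nd1, mt-Nd2 and mt-Nd4 were. Without WT replicate 1 the log2 fold change was 0.28 for mt-Nd6 and 0.08 for mt-Nd3.

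mt-Nd4l (MT 9877 to 10173, plus strand) stood out among the mRNAs. It had 9.81, 3.23 and 2.71 CPM in WT, from 152, 61 and 46 counts, and 1.83, 2.60 and 1.64 CPM in eIF5A-KO, from 30, 44 and 29 counts. Every eIF5A-KO library was below every WT library, by little for replicate 2. The log2 fold change was -1.37 (95% interval -2.50 to -0.24, adjusted p = 0.611 in edgeR). Without WT replicate 1 it was -0.55, and with the counts of Gm10222 added it was -1.12. The groups then overlapped, with 70 counts in eIF5A-KO replicate 2 and 57 in WT replicate 3.

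mt-Cytb, the only complex III gene of this genome, had 11350, 4577 and 4542 CPM in WT and 3948, 6395 and 4186 CPM in eIF5A-KO. Its log2 fold change was -0.49, and 0.09 without WT replicate 1. Of complex IV, mt-Co1 had 25130, 10150 and 7909 CPM in WT and 6642, 12680 and 9573 CPM in eIF5A-KO, with log2 fold changes of -0.58 and, without WT replicate 1, 0.10. Both genes were highest in WT replicate 1 and otherwise overlapped. mt-Co2 had 134, 34.2 and 53.7 CPM in WT and 110, 49.2 and 28.6 CPM in eIF5A-KO. Here eIF5A-KO replicate 1, lowest of all for mt-Co1 and mt-Cytb, was the second highest.

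mt-Co3 and mt-Atp6, of complexes IV and V, had the widest spread. mt-Co3 had 202, 43.8 and 25.9 CPM in WT and 34.0, 74.2 and 22.6 CPM in eIF5A-KO. mt-Atp6 had 132, 19.4 and 17.8 CPM in WT and 28.2, 41.1 and 14.6 CPM in eIF5A-KO. For both, WT replicate 1 was at least 2.72 times the next library and the remaining 5 were interleaved. Their log2 fold changes were -1.05 (adjusted p = 0.876 in edgeR's quasi-likelihood test) and -1.01 (adjusted p = 0.883), and without WT replicate 1 they were 0.33 and 0.59. With the counts of Gm28437 and Gm10925 added, the fold changes shrank to -0.60 and -0.43. In limma-voom, without the copies added, mt-Co3 was at -0.66 and mt-Atp6 at -0.47. In edgeR without a filter on low counts, mt-Co3, mt-Atp6 and mt-Nd4l passed the threshold (adjusted p = 0.000772, 0.0025 and 0.0177), with the same directions. That setting called 249 of 26956 genes (0.924%).

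The rRNAs had log2 fold changes near 0. mt-Rnr1 had 1149, 342 and 374 CPM in WT and 510, 818 and 398 CPM in eIF5A-KO. mt-Rnr2 had 1450, 542 and 610 CPM in WT and 700, 1194 and 568 CPM in eIF5A-KO. WT replicate 1 was highest and eIF5A-KO replicate 2 was second in both. The fold changes were -0.11 and -0.08, and without WT replicate 1 they were 0.69 (adjusted p = 0.422 in edgeR's quasi-likelihood test) and 0.52.

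The tRNA genes were few in counts and uneven. mt-Tp, mt-Tn and mt-Tc, for proline, asparagine and cysteine, held 86.7% to 94.7% of all tRNA counts. They are encoded on the minus strand. The 2 leucine tRNAs are shown with them because mt-Tl1 had the lowest unadjusted p of the tested mitochondrial genes in edgeR. Capitals mark the anticodon.
mt-Tp: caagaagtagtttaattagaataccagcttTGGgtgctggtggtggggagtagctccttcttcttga
mt-Tn: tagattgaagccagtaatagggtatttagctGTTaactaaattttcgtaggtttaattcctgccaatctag
mt-Tc: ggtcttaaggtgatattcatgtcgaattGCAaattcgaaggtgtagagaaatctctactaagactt
mt-Tl1: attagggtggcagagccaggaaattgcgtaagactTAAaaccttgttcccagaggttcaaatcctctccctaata
mt-Tl2: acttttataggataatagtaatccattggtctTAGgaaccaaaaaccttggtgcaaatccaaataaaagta

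In levels per length mt-Tp was at 1363 FPKM, mt-Tc at 558 and mt-Tn at 523, while the other 8 tested tRNAs were at 12.1 to 47.1. The other tested tRNAs lay within 5 bases of a gene on both sides, while 32 bases part mt-Tn from mt-Tc, and no gene was annotated after mt-Tp, at MT 15356 to 15422. All genes of this kind are far shorter than a usual library fragment, and how fragments that reach past a gene's end were counted is not given in the sources used here.

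mt-Tl1 (MT 2676 to 2750, plus strand), the leucine tRNA that lies between mt-Rnr2 and mt-Nd1 with no base between them, had the lowest p of all mitochondrial genes. It had 4.97, 3.50 and 3.30 CPM in WT, from 77, 66 and 56 counts. In eIF5A-KO it had 1.16, 2.13 and 1.47 CPM, from 19, 36 and 26 counts. All 3 eIF5A-KO libraries were below all 3 WT libraries. The log2 fold change was -1.30 (95% interval -2.07 to -0.53), and the adjusted p of 0.398 in edgeR did not pass. Without WT replicate 1 it was -1.09, and no alternative turned its sign. Its neighbours did not share this order: mt-Rnr2 and mt-Nd1 overlapped between the groups.

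mt-Tl2, the other leucine tRNA, had 5.87, 3.34 and 2.71 CPM in WT and 3.605, 3.07 and 1.64 CPM in eIF5A-KO, and the groups overlapped. mt-Tp had 141, 65.6 and 57.6 CPM in WT and 98.7, 125 and 65.2 CPM in eIF5A-KO. mt-Tn had 44.3, 22.7 and 30.02 CPM in WT and 54.0, 56.3 and 17.4 CPM in eIF5A-KO. mt-Tc followed mt-Tn, with 41.0, 19.3 and 33.2 CPM in WT and 61.3, 48.2 and 19.5 CPM in eIF5A-KO. For mt-Tn and mt-Tc, unlike the mRNAs, eIF5A-KO replicates 1 and 2 were the highest libraries. Log2 fold changes were 0.13 for mt-Tp, 0.40 for mt-Tn and 0.47 for mt-Tc, with adjusted p of 0.976, 0.930 and 0.913 in edgeR. With 1 library left out mt-Tp ran from -0.101 to 0.65, mt-Tn from 0.15 to 0.77 and mt-Tc from 0.13 to 0.82. With the length and GC correction mt-Tn and mt-Tc were at 0.81 and 0.89.

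The other 6 tested tRNAs had at most 2.22 CPM in any library. mt-Tw, mt-Tg and mt-Tr had log2 fold changes of -0.77, -0.21 and -0.36, and mt-Th, mt-Ts2 and mt-Te of 0.11, 0.35 and 0.10. With 1 library left out mt-Tw ran from -1.42 to -0.43 and mt-Tr from -0.61 to -0.16. The 95% intervals of these 6 tRNAs all held 0, for example -1.999 to 0.45 for mt-Tw, so no direction could be shown. Over the 11 tested tRNAs 5 were below 0 and 6 above, with a median of 0.10.

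The 11 tRNAs that did not pass the filter had at most 12 counts in a library. Of these, mt-Tf, mt-Ts1 and mt-Td had none in any library, which allows up to 0.159 to 0.194 CPM (3 counts of a library, counting error only). mt-Ts1 and mt-Td lie between mt-Co1 and mt-Co2, and mt-Tk, mt-Tg and mt-Tr also lie between genes with copies on chromosome 1. Whether the copied stretch holds these tRNAs was not searched, and the limit does not cover reads assigned elsewhere or dropped. mt-Ta had 3, 2 and 2 counts in WT and 0 in each library labelled eIF5A-KO, and mt-Ti had 6, 8 and 5 against 3, 2 and 2. Both were lower in eIF5A-KO without overlap, as mt-Tl1 was, but at counts at or near this floor. mt-Tv, mt-Tq, mt-Tm, mt-Ty, mt-Tk and mt-Tt overlapped between the groups.

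By strand, 18 of the 20 tested genes encoded on the plus strand were below 0, with a median log2 fold change of -0.35, and 1 of the 5 on the minus strand (mt-Nd6, with mt-Tn, mt-Tc, mt-Te and mt-Tp above 0), with a median of 0.13. Without WT replicate 1 the medians were 0.09 and 0.65, so the plus-strand median turned sign, with 9 of the 20 genes still or newly below 0, and the order of the medians stayed. The difference between the strands was not tested, and 4 of the 5 genes on the minus strand are tRNAs.

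Nuclear genes were read from 8 lists, of which 5 act on mitochondrial DNA, RNA or translation and the others cover biogenesis, mitochondrial mass, and mitophagy and stress. Over the 8, 147 genes were matched and 144 tested. None passed an adjusted p of 0.05 in edgeR, beside 0.0204% of all genes, and DESeq2 called 1, Dna2, beside 0.627% of all genes in DESeq2. At an unadjusted p under 0.05, 1 was lower (Dna2) and 2 were higher (Gdf15 and Ddit3, both of the stress list), shares below the background of 4.02% and 2.74%. Of the 144, 77 were below 0 and 67 above, with a median of -0.01. Groups that did not overlap were found in 5 lower and 5 higher genes, again below the shares of 6.83% and 5.68% of all genes.

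For replication and maintenance of mitochondrial DNA, 15 of 22 genes were below 0, with a median of -0.17. Dna2, a nuclease and helicase that works in the nucleus and in mitochondria, had 10.7, 12.6 and 10.1 CPM in WT and 5.56, 6.03 and 6.17 CPM in eIF5A-KO. The groups were far apart relative to their spread, and the log2 fold change was -0.91 (95% interval -1.38 to -0.45, adjusted p = 0.362 in edgeR), -0.93 without WT replicate 1. Ssbp1, which coats single-stranded mitochondrial DNA, had a log2 fold change of -0.44, from 47.8, 23.7 and 37.0 CPM in WT to 22.6, 26.9 and 30.5 CPM, and ran from -0.67 without WT replicate 2 to -0.18 without WT replicate 1. Tfam, which packs the DNA and opens its promoters, had 65.9, 48.3 and 55.4 CPM in WT and 42.8, 49.8 and 47.6 CPM in eIF5A-KO, with overlap and a log2 fold change of -0.27, or -0.14 without WT replicate 1.

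For transcription, 8 of 11 genes were below 0, with a median of -0.26, and -0.01 without WT replicate 1. Polrmt, the mitochondrial RNA polymerase, had 17.4, 42.8 and 35.4 CPM in WT and 42.6, 36.4 and 38.7 CPM in eIF5A-KO. Its lowest value was thus in WT replicate 1, the library with the most mitochondrial RNA. The elongation factor Tefm had 14.8, 10.0 and 11.7 CPM in WT and 8.49, 7.63 and 11.3 CPM in eIF5A-KO, and the initiation factor Tfb2m was level at a log2 fold change of 0.04.

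For RNA processing and stability, 12 of 25 genes were below 0, with a median of 0.02. Trmt10c, a part of the RNase P that cuts tRNA 5′ ends, and Elac2, which cuts their 3′ ends, had log2 fold changes of -0.05 and -0.15. Lrpprc, which with Slirp binds and steadies mitochondrial mRNAs, was at 0.14. Slirp had 7.04, 2.33 and 1.83 CPM in WT and 1.96, 2.19 and 2.32 CPM in eIF5A-KO, so that its log2 fold change of -0.78 rested on WT replicate 1 and was 0.06 without it. Angel2 was lower without overlap, at -0.33 (adjusted p = 0.803 in edgeR).

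In RNA modification 12 of 25 genes were below 0 and the median was 0.04. The pseudouridine synthases Rpusd3 and Trub2 had the lowest p there, at log2 fold changes of 0.74 and 0.33. In translation factors 9 of 17 were below 0, with Guf1, an elongation factor of mitochondrial ribosomes, at -0.40 and Oxa1l, which inserts new proteins into the inner membrane, at 0.28. Adjusted p in these lists was at least 0.791 in edgeR.

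Among regulators of mitochondrial biogenesis, 7 of 15 tested genes were below 0. The coactivator Ppargc1a had 1.16, 1.91 and 1.48 CPM in WT and 2.63, 2.25 and 2.32 CPM in eIF5A-KO, higher without overlap, with a log2 fold change of 0.65 and an edgeR adjusted p of 0.799. Its relative Ppargc1b had 1.36, 5.03 and 2.71 CPM in WT and 1.47, 1.54 and 1.98 CPM in eIF5A-KO, at -0.87 with overlap and from -1.21 to -0.29 with 1 library left out. Both were low transcripts.

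Nuclear genes of mitochondrial proteins, used as a gauge of mitochondrial mass, summed to 7847, 5480 and 6452 CPM in WT and 6632, 6774 and 6136 CPM in eIF5A-KO over 22 genes. WT replicate 1 was highest here as well, by less than in the mitochondrial transcripts. Cycs, cytochrome c, had 296 CPM in that library and 124 to 163 CPM in the others, and Ndufs1, a complex I subunit, had 109, 90.9 and 93.1 CPM in WT and 77.2, 88.8 and 88.1 CPM in eIF5A-KO.

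In mitophagy and mitochondrial stress, 9 of 14 genes were above 0. Gdf15, a secreted factor induced by mitochondrial stress, had 290, 402 and 503 CPM in WT and 799, 523 and 554 CPM in eIF5A-KO. Ddit3, a transcription factor of the stress response, had 41.4, 27.4 and 43.6 CPM in WT and 71.2, 47.8 and 49.8 CPM in eIF5A-KO. Both were higher in eIF5A-KO without overlap, at log2 fold changes of 0.65 and 0.58, and neither passed with adjusted p of 0.644 and 0.679 in edgeR.

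**Figure D5:**
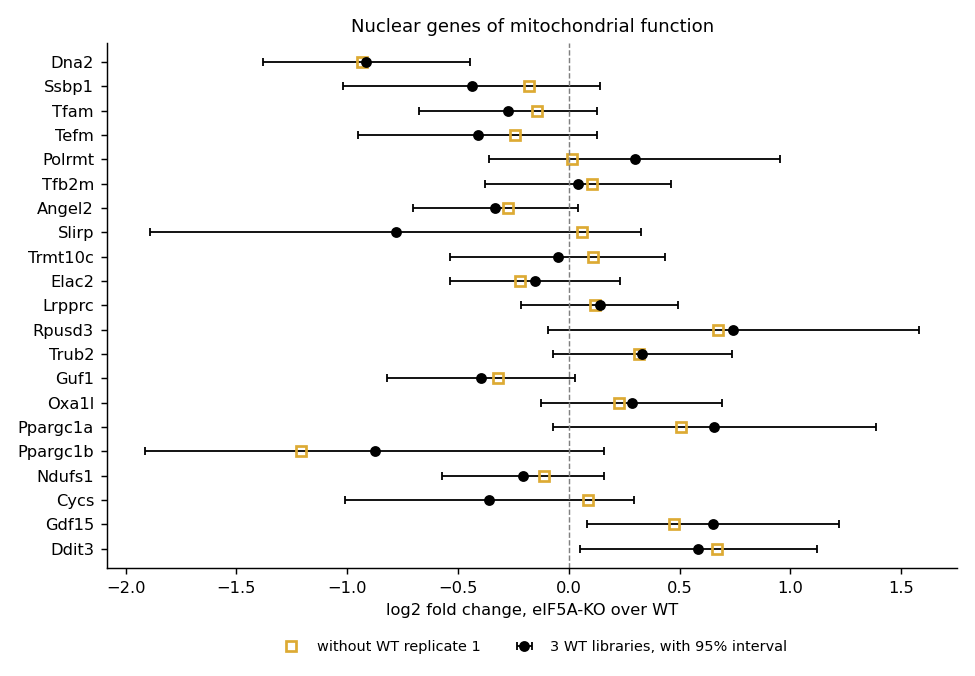
Log2 fold change, eIF5A-KO over WT, of the 21 named nuclear genes of the 8 lists, with its 95% interval (black) and the value without WT replicate 1 (open squares). The intervals of Dna2, Gdf15 and Ddit3 leave out 0, and none of the genes passed an adjusted p of 0.05 in edgeR, while DESeq2 called Dna2.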

How the data were processed

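The authors extracted total RNA with TRIzol, made libraries with an NEBNext Ultra kit, mapped reads to mm10 with HISAT and deposited counts per gene, without normalization, and a table of FPKM. The HISAT version, the gene annotation, strandedness and the rule for reads that fit several places are not given in the sources used here. A gene length column, deposited with the counts (unit: bases), was used to check the FPKM, in the length and GC correction and in the simulated data. Counts were tested in edgeR 4.0.16 (R 4.3.3). Low genes were removed by filterByExpr, libraries were scaled by TMM, and groups were compared by quasi-likelihood (prior count 0.125, no covariate), with Benjamini-Hochberg adjusted p over the 14679 genes kept. Replicate numbers did not pair the libraries. Shares and ratios had exact two-sided permutation tests. Alternatives used DESeq2 1.42.0 and limma 3.58.1. Nuclear copies were found by aligning GENCODE M21 transcripts (GRCm38) with blastn 2.17.0, keeping at least 100 bases at 90% identity, and were named from 10 counts in any library. Scripts were tested on simulated data.

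The members, gene lists and tests were chosen with earlier results of these data known. Named were all mRNAs and rRNAs, the tRNAs that passed the filter or were highest, and nuclear genes that were core factors, had the 2 lowest p of their list or passed the threshold. Errors are SD, intervals are at 95%, and reads carry no molecular identifiers, so counting limits cover counting error only. The 7 marker and 8 pathway lists came from general knowledge. Adding the counts of the copies to their genes was chosen after seeing the data.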

Additional observations from a re-analysis of the deposited data

How the results depend on the processing

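No mitochondrial gene passed an adjusted p of 0.05 in the main comparison, and none did under the alternatives except 3 without a filter on low counts (mt-Atp6, mt-Co3 and mt-Nd4l). The count over the 8 nuclear lists was 0 except for 1 with DESeq2 (Dna2). Over all genes 3 were called, against 0 with DESeq2 size factors, library size alone, at least 10 counts in every library, limma-voom or either limma fit on FPKM, 249 without a filter, 92 with DESeq2, 12 with the length and GC trend taken out, and 0 to 56 with 1 library left out. The replicate numbers did not pair the samples (correlations of same-numbered libraries 0.084, -0.160 and 0.105), and a replicate block gave 24 calls over all genes and none among the mitochondrial ones. The median of the tested mitochondrial genes was -0.26 to -0.22 under the other settings, 0.11 with the length and GC trend taken out, and -0.44 to 0.11 with 1 library left out. The difference in mitochondrial share was -0.944 percentage points, -1.77 as a share of FPKM and -1.53 to 0.102 with 1 library left out.

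Signs turned in 18 of the 25 genes under at least 1 alternative. No gene passed the threshold in a setting that turned its sign, and the cause was not tested. With the length and GC trend taken out, log2 fold changes became 0.25 for mt-Rnr1, 0.22 for mt-Rnr2, 0.11 for mt-Nd2, 0.17 for mt-Co2, 0.12 for mt-Tg, 0.26 for mt-Nd3, 0.0145 for mt-Tr, 0.23 for mt-Nd6, 0.0571 for Trmt10c and -0.089 for Eif5a. mt-Rnr1 was also at 0.0507 in limma-voom, 0.0649 and 0.0652 in limma on log2(FPKM + 1) and log2(FPKM + 0.1), and 0.0594 with the replicate block, and mt-Rnr2 at 0.0025 and 0.0026 in the 2 FPKM fits. With 1 library left out, ranges that crossed 0 were -0.44 to 0.69 for mt-Rnr1, -0.44 to 0.52 for mt-Rnr2, -0.64 to 0.11 for mt-Nd1, -0.48 to 0.31 for mt-Nd2, -0.87 to 0.102 for mt-Co1, -0.92 to 0.52 for mt-Co2, -1.43 to 0.59 for mt-Atp6, -1.66 to 0.33 for mt-Co3, -0.44 to 0.017 for mt-Tg, -0.15 to 0.19 for mt-Nd3, -0.56 to 0.22 for mt-Nd4, -0.0381 to 0.37 for mt-Th, -0.0443 to 1.101 for mt-Ts2, -0.38 to 0.28 for mt-Nd6, -0.14 to 0.32 for mt-Te, -0.74 to 0.095 for mt-Cytb, -0.101 to 0.65 for mt-Tp, -0.0952 to 0.15 for Tfb2m, -1.11 to 0.0578 for Slirp, -0.23 to 0.11 for Trmt10c, -0.597 to 0.0869 for Cycs and -0.13 to 0.23 for Eif5a. Other genes kept their sign with 1 library left out. Among them, ranges with an end over 1.5 times away from the main value were -1.42 to -0.43 for mt-Tw, 0.15 to 0.77 for mt-Tn, 0.13 to 0.82 for mt-Tc, -0.61 to -0.16 for mt-Tr, -1.68 to -0.55 for mt-Nd4l, -0.74 to -0.12 for mt-Tl2, -0.47 to -0.00926 for mt-Nd5, -0.67 to -0.18 for Ssbp1, -0.37 to -0.14 for Tfam, -0.59 to -0.24 for Tefm, 0.0124 to 0.57 for Polrmt, -0.22 to -0.0683 for Elac2, 0.0862 to 0.21 for Lrpprc, 0.47 to 1.03 for Rpusd3, 0.18 to 0.404 for Oxa1l, -1.21 to -0.29 for Ppargc1b, -0.26 to -0.11 for Ndufs1 and 0.39 to 0.71 for Ddit3.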
